A study of Bos taurus with 7 samples.

Results

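The let-7 family was followed in cow plasma through the 8 let-7 guide strands on a bovine miRNA microarray: bta-let-7a-5p, bta-let-7b, bta-let-7c, bta-let-7d, bta-let-7e, bta-let-7f, bta-let-7g and bta-let-7i. Names below leave out bta, the prefix for cattle. They were taken by name from the 744 bovine miRNAs of the array, control spots left out. The animals were 7 Japanese-Black cows, artificially inseminated after controlled estrus, with blood drawn on day 21 counted from insemination. The question of the design was whether circulating miRNAs differ between the 4 cows labelled pregnant (pregnant 1 to 4) and the 3 labelled non-pregnant (non-pregnant 1, 3 and 4). Age, sire and the way pregnancy was determined are not given in the sources used here. Each cow was 1 array, with RNA from plasma labelled with a single dye (Cy3). The spread given here is thus between animals, with any differences of labelling and array included.

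let-7 is an ancient miRNA family whose members share a seed, the short stretch near the 5′ end that pairs with target messages. The guide strands repress growth and stem cell genes such as HMGA2 and the RAS genes, and the RNA-binding protein LIN28 blocks the maturation of their precursors. They are abundant in many differentiated tissues and in blood cells, from which plasma miRNAs can come.

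Members differ from each other at only a few bases, which sets how well a hybridisation probe can separate them, so the probes are shown first. Each member had 2 probes of 10 spots each, and the short probe lacked the last base of the long one. These are the long probes as deposited, 5′ to 3′, complementary to the guide strand; capitals mark bases that differ from the let-7a-5p probe.
let-7a-5p: aactatacaacctactacct
let-7b: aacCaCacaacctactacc
let-7c: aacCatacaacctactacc
let-7d: aactatGcaacctactacc
let-7e: actatacaacctCctacct
let-7f: aactatacaaTctactacctc
let-7g: aactGtacaaActactacctc
let-7i: aacAGCacaaActactacctc
miR-98: aacAatacaacTtactacctc
Positions are counted from 1 at the 5′ end of the let-7a-5p probe, with its base given first. By that count let-7c differed at T4C, let-7b at T4C and T6C, and let-7d at A7G. let-7e differed at A14C and started 1 base further in, and let-7f differed at C11T. let-7g had A5G and C11A, and let-7i had T4A, A5G, T6C and C11A. miR-98, which carries the let-7 seed under another name, had T4A and C12T. Of the 28 pairs among the 8 members, 5 differed at 1 compared base, 10 at 2, 7 at 3, 4 at 4 and 2 at 5. None of the 16 probe sequences was listed under another miRNA.

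The design of the array places the long probes on the bovine assembly UMD 3.1. The let-7b probe lies at chr5:117120194-117120211, the let-7g probe at chr22:49189346-49189365 and the let-7i probe at chr5:51209088-51209107. let-7c lies at chr1:19930473-19930490, let-7d at chr8:86887442-86887459 and let-7e at chr18:58015046-58015063. let-7f is listed at chr8:86885232-86885252 and chrX:96383540-96383560. let-7a-5p is listed at 6 spans, 2 each on chromosomes 5, 8 and 15; whether all 6 are of UMD 3.1 could not be checked here, so they are not printed as places of separate genes. Several listed spans are 1 base shorter than their probe, and no annotation of exons or introns was used for them.

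let-7 was dim on every array, and 6 of its 8 members reached detection on at least 1 array. A miRNA counts as detected where the scanner software said so. Across the array 124 of 744 miRNAs were detected at least once (16.7%), with 90 to 101 per pregnant array and 45 to 84 per non-pregnant array. The low end, 45, was non-pregnant 1, which was the dimmest array and detected no let-7 member. let-7b, let-7g and let-7i were detected on all 4 pregnant arrays, as were 75 of 744 miRNAs (10.1%), and on non-pregnant 3 and 4. No member was detected on all 3 non-pregnant arrays, as 41 of 744 miRNAs were (5.51%). let-7a-5p and let-7c were detected on pregnant 2 and 4 only, let-7f on pregnant 4 only, and let-7d and let-7e on none. The number of members detected was 3, 5, 3 and 6 on pregnant 1 to 4, and 0, 3 and 3 on non-pregnant 1, 3 and 4, so the groups overlapped at 3. No member was detected on all 7 arrays, as 40 of 744 miRNAs were (5.38%). Missing on non-pregnant 1 while detected on the 6 other arrays was a pattern that let-7b, let-7g and let-7i shared with 27 other miRNAs, 30 in all.

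A second flag, set spot by spot, marks signal well above background, and it was met by fewer members. Of 1060 let-7 spots without an outlier flag, 128 (12.1%) were well above background. let-7b held 77 of them out of its 137 spots, let-7g 35 of 129 and let-7i 13 of 133. let-7a-5p had 2 such spots and let-7c had 1, all on pregnant 4, and let-7d, let-7e and let-7f had 0. Of the 23 detected pairs of a member and an array, 8 had no unflagged spot well above background, against 9.40% of the 585 detected pairs over all miRNAs. These were let-7i on pregnant 1, pregnant 3, non-pregnant 3 and non-pregnant 4, let-7g on non-pregnant 4, let-7a-5p and let-7c on pregnant 2, and let-7f on pregnant 4. A stricter rule counts a member as present only where over 50% of the spots of a probe are well above background. By that rule 3 members remain: let-7b on 4 pregnant and 2 non-pregnant arrays, let-7g on 3 and 1, and let-7i on 2 and 0. Neither this rule nor the 12.1% share of spots was set against all miRNAs. Whether the split of let-7i is unusual on these arrays is therefore not shown. By detection calls, 33 of the 124 miRNAs detected on at least 1 array (26.6%) were found on pregnant arrays only. The reverse held for 2 of the 124 (1.61%).

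**Figure D1:**
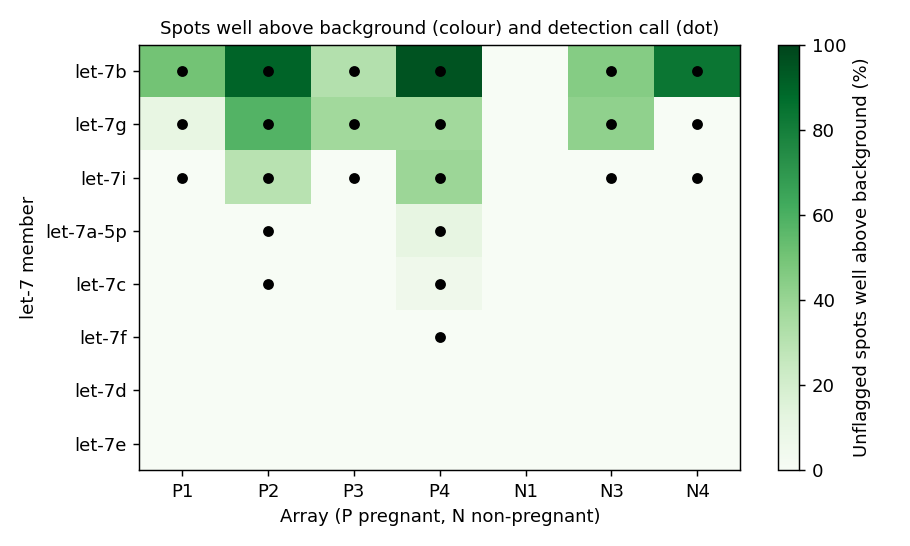
Each row is a let-7 member and each column an array (P pregnant, N non-pregnant, with cow number); colour gives the percentage of unflagged spots well above background and a dot marks a detection call. let-7b is darkest, non-pregnant 1 has no dot, and the 8 dots on uncoloured cells are detection calls with no unflagged spot well above background.

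The members were ordered by their mean probe signal, the average of the 2 probes in intensity units after the software's background subtraction and with no scaling between arrays. By the median over the 7 arrays, let-7b led at 8.31, followed by let-7g at 6.77, let-7i at 4.73, let-7a-5p at 3.54, let-7c at 3.28, let-7f at 2.94, let-7d at 1.85 and let-7e at 1.54. Negative control spots averaged 1.76 to 2.85 per array, with 99th percentiles of 5.17 to 6.55. The long probe exceeded that percentile on 6 of 7 arrays for let-7b and let-7g, 5 for let-7i, 2 for let-7c, 1 for let-7a-5p and let-7f, and 0 for let-7d and let-7e. Probes differ in how strongly they bind, so this is an order of signals and not of amounts.

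Neighbours in the order were compared within arrays. let-7b was above let-7g on 7 of 7 arrays, by 3.34 ± 2.89 (SD, n = 7). let-7g exceeded let-7i on 5 of 7 arrays, by 1.13 ± 1.87, which is less than its spread, and the same held of let-7a-5p over let-7c (4 of 7 arrays, 0.39 ± 0.52). let-7i was above let-7a-5p on 7 arrays by 1.83 ± 0.75, and let-7c above let-7f on 7 arrays by 0.57 ± 0.38. let-7f was above let-7d on 6 arrays (1.03 ± 0.82) and let-7d above let-7e on 5 (0.59 ± 0.54).

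**Figure D2:**
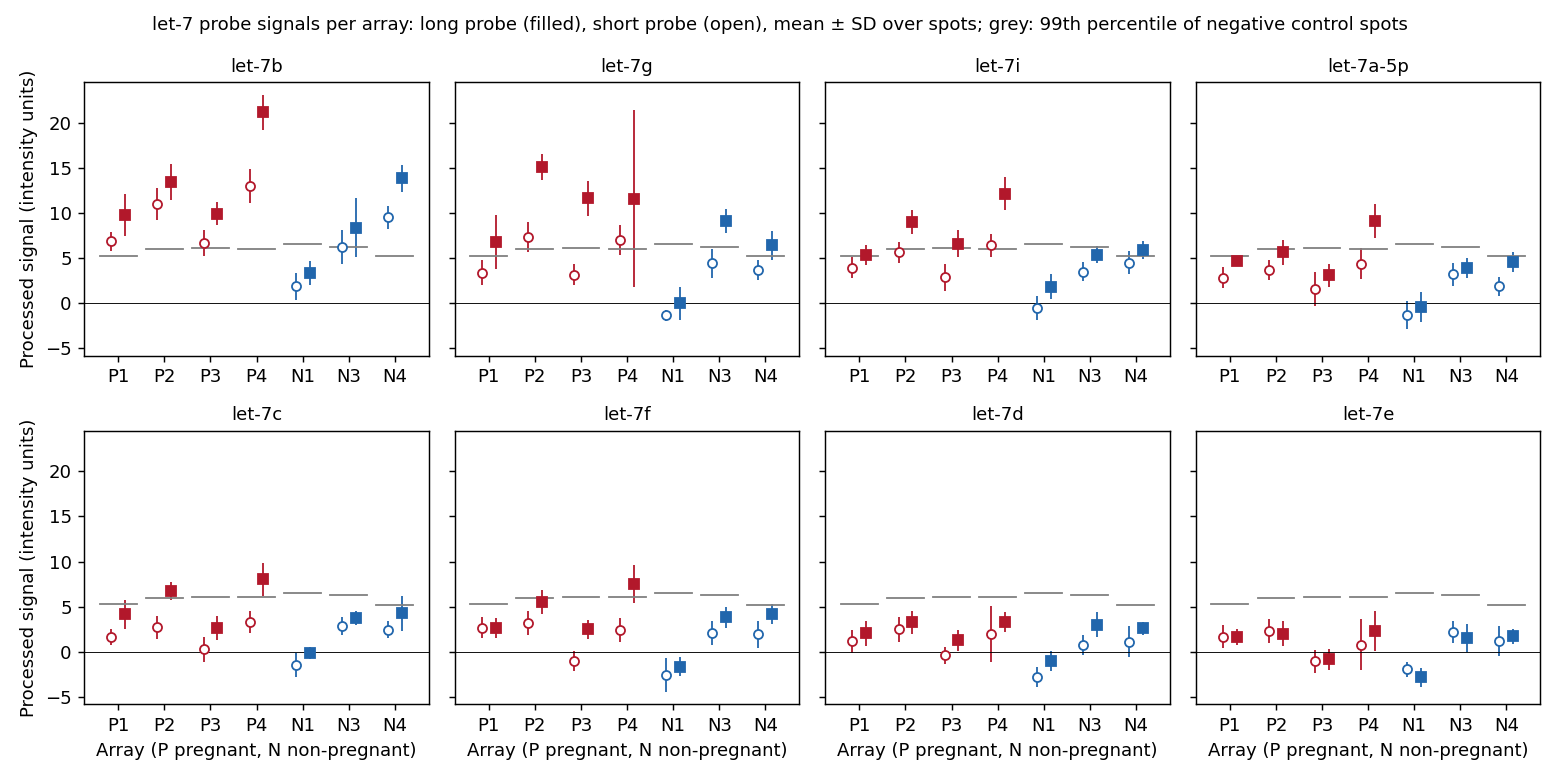
Processed signal (vertical axis, intensity units, not scaled between arrays) of the long probe (filled squares) and short probe (open circles) of each let-7 member on each array; bars are the SD over spots of a probe and not between cows, red is pregnant, blue is non-pregnant, and grey lines are the 99th percentile of that array's negative control spots. let-7b, let-7g and let-7i rise above the grey lines on several arrays, while let-7d and let-7e never do.

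let-7b, the brightest member, had mean probe signals of 8.31, 12.2, 8.30 and 17.1 on pregnant 1 to 4 and of 2.61, 7.28 and 11.7 on non-pregnant 1, 3 and 4. Pregnant 4 was highest and non-pregnant 1 lowest, and non-pregnant 4 exceeded pregnant 1 and 3, so the groups overlapped. The group means were 11.5 ± 4.16 (SD, n = 4) and 7.18 ± 4.53 (SD, n = 3), and 9.47 for non-pregnant 3 and 4 alone. Spots well above background numbered 10, 18, 6 and 19 on the pregnant arrays and 0, 9 and 15 on the non-pregnant arrays. On non-pregnant 1 the let-7b signal lay below that array's negative control mean of 2.85.

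let-7g had mean probe signals of 5.09, 11.2, 7.39 and 9.30 on pregnant 1 to 4 and of -0.68, 6.77 and 5.02 on non-pregnant 1, 3 and 4. Pregnant 2 was highest, and non-pregnant 3 stood above pregnant 1, so these groups overlapped too. The means were 8.25 ± 2.62 (SD, n = 4) and 3.70 ± 3.90 (SD, n = 3), and 5.90 without non-pregnant 1. Its long probe gave 6.80, 15.1, 11.6 and 11.6 on the pregnant arrays and -0.027, 9.12 and 6.40 on the non-pregnant arrays. The long let-7g probe was brighter than the long let-7b probe (9.78, 13.5, 9.92 and 21.1; 3.35, 8.36 and 13.8) on pregnant 2, pregnant 3 and non-pregnant 3.

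The pregnant 4 value of let-7g rests on spots that fell into 2 separate ranges. Of the 10 spots of its long probe there, none flagged as an outlier, 3 lay between -5.41 and -0.046 and the other 7 between 15.2 and 20.8. Their mean was 11.6 and their median 16.6, and the 7 bright spots averaged 17.5. Low spots of this kind, under 25% of the median of a probe whose median exceeded 10, made up 27 of 991 spots on pregnant 4 (2.72%), against 0 to 3 spots on each of the other arrays (at most 0.351%).

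**Figure D3:**
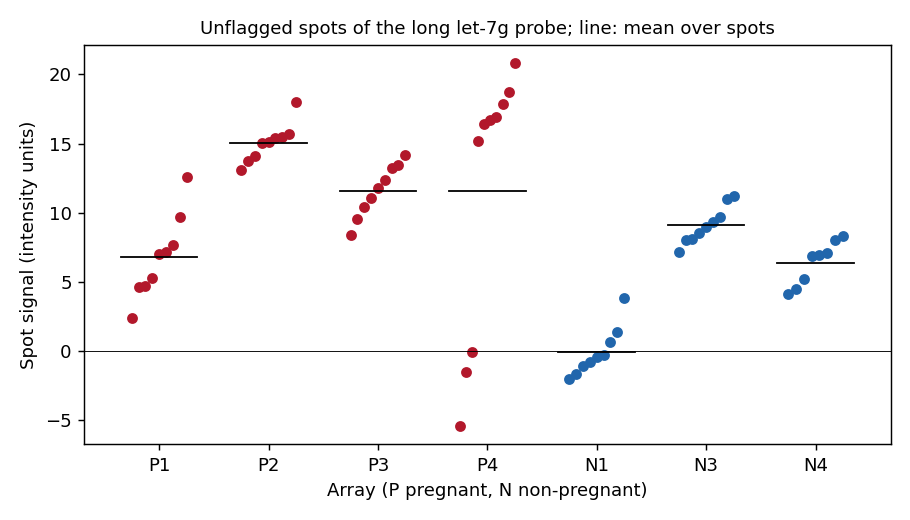
Signal of each unflagged spot of the long let-7g probe (vertical axis, intensity units) by array, with spots sorted within an array and a black line at their mean; red is pregnant and blue non-pregnant. On pregnant 4 the 3 low spots lie below 0 while the other 7 lie at 15.2 or above, and the mean of 11.6 falls between them.

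let-7i had mean probe signals of 4.65, 7.29, 4.73 and 9.26 on pregnant 1 to 4 and of 0.66, 4.41 and 5.17 on non-pregnant 1, 3 and 4. Pregnant 2 and 4 were highest, and pregnant 1 and 3 lay below non-pregnant 4. The means were 6.48 ± 2.22 (SD, n = 4) and 3.41 ± 2.42 (SD, n = 3), and 4.79 without non-pregnant 1. Its unflagged spots well above background were all on pregnant 2 (6 spots) and pregnant 4 (7 spots). On non-pregnant 3, 2 spots of its long probe were well above background but carried an outlier flag. By unflagged spots let-7i was thus detected by the software, but not well above background, on non-pregnant 3 and 4 and likewise on pregnant 1 and 3.

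The software's own signal per miRNA for let-7g and let-7i was a sum over a number of probes that changed between arrays. That value was 4.51, 14.9, 7.71 and 12.3 for let-7g on pregnant 1 to 4 and 6.05 and 4.24 on non-pregnant 3 and 4. It sums only the probes the software called detected, and of the 23 detected pairs 14 held 1 probe and 9 held 2. let-7g on pregnant 2 was the sum of 2 probes and on pregnant 3 a single probe of 7.71; its brightest probe on pregnant 2 was 10.01. For let-7i the value was 3.55, 9.67, 4.37 and 8.05 on the pregnant arrays and 3.54 and 3.90 on non-pregnant 3 and 4, with 2 probes summed on pregnant 2 only. let-7b was summed over 2 probes wherever it was detected, at 11.03, 16.2, 11.01 and 22.7 on the pregnant arrays and 9.66 and 15.5 on non-pregnant 3 and 4. Among all miRNAs detected on at least 2 arrays, 34 of 99 had a number of summed probes that changed between arrays.

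The dimmer members stayed near the level of the control spots on most arrays. On pregnant 4 the long probes of let-7a-5p (9.07), let-7c (8.02) and let-7f (7.52) exceeded the 99th percentile of the control spots, 6.04. The long let-7c probe also did so on pregnant 2, at 6.72 against 6.02. let-7a-5p had mean probe signals of 3.75, 4.65, 2.31 and 6.73 on pregnant 1 to 4 and of -0.86, 3.54 and 3.22 on non-pregnant 1, 3 and 4. let-7c gave 2.90, 4.72, 1.46 and 5.67, then -0.80, 3.28 and 3.36, in the same order. let-7f gave 2.65, 4.35, 0.75 and 4.98, then -2.11, 2.94 and 3.07. All 3 were highest on pregnant 4 and lowest on non-pregnant 1, and in each the groups overlapped. let-7d ranged from -1.89 to 2.87 and let-7e from -2.40 to 2.15 over the 7 arrays.

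How far the probes told close members apart could be read in only 1 of the 5 pairs that differ at 1 compared base, that of let-7b and let-7c. The long let-7b probe had a majority of spots well above background on 6 arrays, and there the long let-7c probe read 26.7% to 49.9% of the let-7b signal (median 40.2%). The let-7c probe itself never had such a majority, so part of its reading is background, and how much came from let-7b was not tested. In the other 4 pairs, let-7a-5p with let-7c, let-7d, let-7e or let-7f, neither long probe had a majority of spots well above background on any array. These data therefore do not show whether those probes separate the members. The long-probe signals of let-7a-5p were 4.67, 5.61, 3.08 and 9.07 on pregnant 1 to 4 and -0.43, 3.91 and 4.60 on non-pregnant 1, 3 and 4, against 4.14, 6.72, 2.65 and 8.02, then -0.15, 3.72 and 4.27 for let-7c.

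The long probe was brighter than the short probe on 7 of 7 arrays for let-7a-5p, let-7b, let-7c, let-7d, let-7g and let-7i, on 6 for let-7f and on 3 for let-7e. The median ratio of long to short was 1.46 for let-7b, 1.56 for let-7i and 2.03 for let-7g. A brighter long probe was common on the array. The 84 other miRNAs compared had 2 probes that differ by 1 added base. At least 1 array had a probe with a majority of spots well above background. In 59 of the 84 (70.2%) the long probe was brighter on all arrays, and the median ratio over the 84 was 1.75. Among the let-7 members only let-7b, let-7g and let-7i met that condition on background.

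Of the 3 let-7 members that could be tested, none was called different between pregnant and non-pregnant cows. For this comparison signals were divided by each array's 75th percentile over 57 probes detected on all arrays, set to a floor of 0.0122 where lower, and put on the log2 scale, where the floor is -6.36. The comparison covered 88 miRNAs detected on at least 3 arrays, among them let-7b, let-7g and let-7i; the other 5 members did not pass that filter. limma called 0 of the 88 (0%) at an adjusted p under 0.05, and 1 had an unadjusted p under 0.05. The difference was positive, meaning higher in pregnant cows, in 62 of 88 (70.5%) and in all 3 let-7 members, and its median over the 88 was 0.18. That split was 76 of 88 with no scaling between arrays, 39 with quantile scaling and 8 with normexp background correction.

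The scaled log2 level of let-7b was -6.16, -5.18, -6.36 and -4.65 on pregnant 1 to 4 and -6.02, -6.36 and -6.12 on non-pregnant 1, 3 and 4. Pregnant 2 and 4 were high, and the other 5 arrays lay within a narrow range that included both groups. The means were -5.59 ± 0.81 (SD, n = 4) and -6.17 ± 0.17 (SD, n = 3), a difference of 0.58 (SE 0.44, 95% interval -0.49 to 1.65, limma adjusted p = 0.743). Scaling changed the order of the arrays, since the divisor ran from 172 on non-pregnant 1 to 1645 on pregnant 3. On non-pregnant 1, where let-7b was not detected, its scaled level was the highest of the non-pregnant arrays, while on pregnant 3 and non-pregnant 3 it was at the floor although 6 of 9 and 7 of 10 long-probe spots were well above background.

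let-7g was at the floor on 5 arrays and at -5.39 on pregnant 2 and -5.52 on pregnant 4. let-7i was at the floor on the same 5 arrays and at -5.96 and -5.56 on pregnant 2 and 4. On non-pregnant 3 let-7g was at the floor although 8 of 9 long-probe spots were well above background. Since all 3 non-pregnant arrays were at the floor, neither difference could be negative here. It was 0.45 for let-7g (SE 0.29, 95% interval -0.24 to 1.14) and 0.30 for let-7i (SE 0.22, 95% interval -0.22 to 0.82), both with a limma adjusted p of 0.743. For let-7i no fold is given, because no non-pregnant array had a probe well above background and the lower bound fell under 1. With normexp background correction the differences were -0.15 for let-7b, -0.19 for let-7g and -0.21 for let-7i, beside a median of -0.19 over the 88 miRNAs. No let-7 mean probe signal exceeded 17.1, so the added offset of 50 outweighs let-7 in those levels. The part of the offset in the negative sign was not tested.

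**Figure D4:**
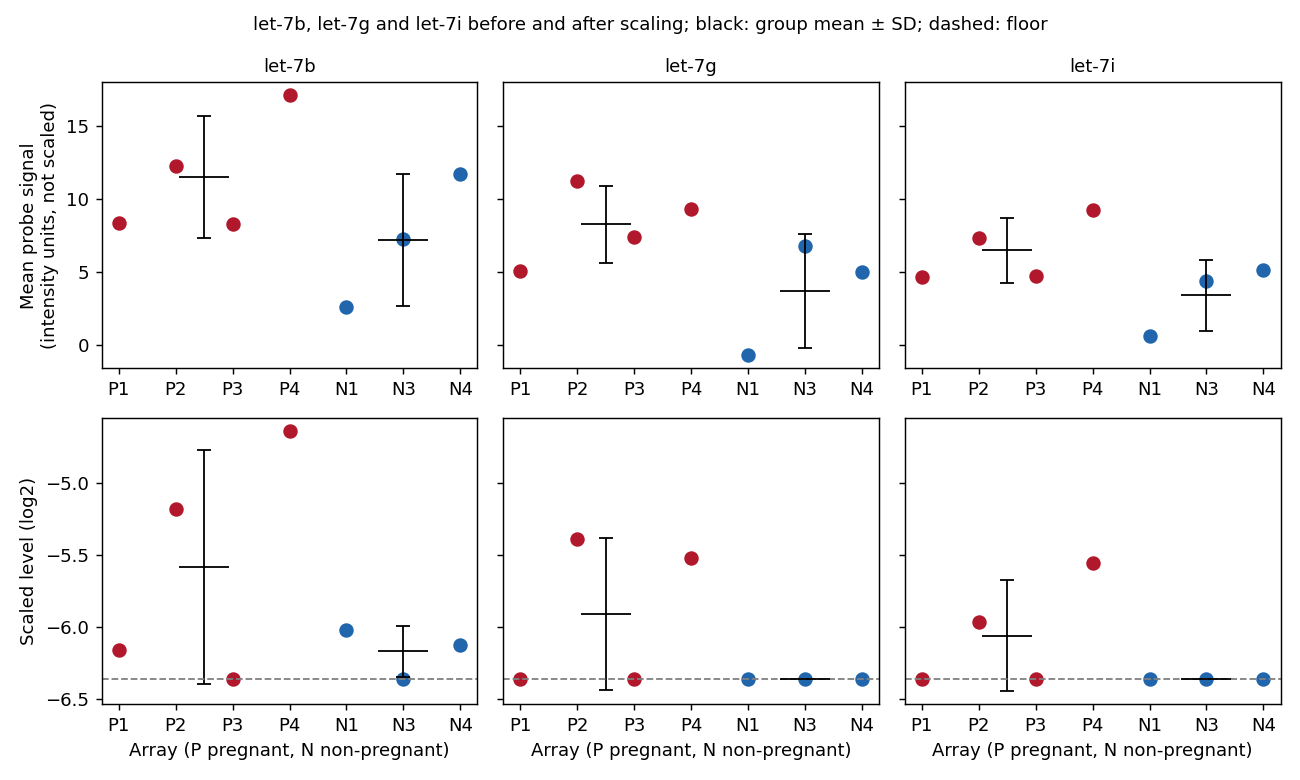
Upper panels give the mean probe signal (intensity units, not scaled) and lower panels the scaled level (log2) of let-7b, let-7g and let-7i on each array; red is pregnant, blue is non-pregnant, black marks are the group mean ± SD (n = 4 and n = 3), and the dashed line is the floor at -6.36. Without scaling non-pregnant 1 is lowest in all 3 members; after scaling let-7g and let-7i leave the floor on pregnant 2 and 4 only.

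Without scaling between arrays the differences on the log2 scale, with a floor at a signal of 8.52, were 0.28 (SE 0.25) for let-7b, 0.20 (SE 0.10) for let-7g and 0.073 (SE 0.076) for let-7i. limma again called 0 of 88 (0%), with 10 at an unadjusted p under 0.05 and an adjusted p of 0.966 for let-7b, 0.475 for let-7g and 1 for let-7i. That split of directions rested on non-pregnant 1: without it, 40 of 88 unscaled differences were positive, with a median of -0.0048. The authors' deposited log2 table leaves undetected miRNAs blank and so drops non-pregnant 1 for these members. There the limma differences were 0.25 for let-7b, 0.82 for let-7g and 0.67 for let-7i (SE 0.74 each). That table carries the software's signal per miRNA. It summed 2 probes for let-7g on pregnant 2 and 4 and for let-7i on pregnant 2. On non-pregnant 3 and 4 it held 1 probe for both, so the number of probes enters their differences. Pregnant arrays lay in slide row 1 and non-pregnant arrays in slide row 2 of 1 slide, so row and pregnancy cannot be told apart.

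The test of detection could not have called any let-7 member. Fisher's exact test (two-sided) gave p = 0.429 for let-7b, let-7g and let-7i (4 of 4 pregnant against 2 of 3 non-pregnant) and for let-7a-5p and let-7c (2 of 4 against 0 of 3), and p = 1 for let-7f. Over the 84 miRNAs so tested, 0 passed after Benjamini-Hochberg adjustment (0%), 1 had an unadjusted p under 0.05 and the smallest adjusted p was 0.783. The smallest p possible at the number of arrays that detected a member was 0.429 for let-7b, let-7g, let-7i and let-7f and 0.143 for let-7a-5p and let-7c. let-7a-5p, let-7c and let-7f were 3 of the 33 miRNAs detected on a pregnant array and on no non-pregnant array (26.6% of the 124 detected anywhere). Only 2 miRNAs (1.61%) showed the opposite, and neither was a let-7 member.

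The share of let-7 in the summed signal of detected miRNAs was 0.0488%, 0.143%, 0.0229% and 0.251% on pregnant 1 to 4 and 0%, 0.0274% and 0.0405% on non-pregnant 1, 3 and 4. Pregnant 3 lay below non-pregnant 3 and 4, so the groups overlapped, at 0.116% ± 0.104 (SD, n = 4) against 0.0226% ± 0.0207 (SD, n = 3).

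The RNAs nearest to let-7 in sequence or gene position were not seen. miR-98 was detected on no array, with signals of -1.87 to 3.14. The passenger strand let-7a-3p was detected on none either, with negative signals on all 7 arrays (-1.82 to -1.05). Of 6 miRNAs encoded beside let-7 genes (miR-98, miR-99a-5p, miR-99b, miR-100, miR-125a and miR-125b), 0 were detected. Over the whole array 124 of 744 miRNAs (16.7%) were detected at least once, and whether 0 of 6 is unusual was not tested.

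Blood cell miRNAs were present in the same plasma, and their summed signal is given because cells can release let-7. Platelet miRNAs (miR-24-3p, miR-126-3p and miR-197, 3 of 3 detected) summed to 65.0 to 103 on pregnant arrays and 30.6 to 57.9 on non-pregnant arrays. These sums did not overlap, and they are unscaled. Among the 124 miRNAs detected at least once, the unscaled signal of 13 (10.5%) was higher on every pregnant than on every non-pregnant array. The 3 platelet miRNAs were unlike each other. By mean probe signal miR-24-3p read 42.9 to 66.9 on pregnant and 17.9 to 39.3 on non-pregnant arrays. For miR-197 the groups overlapped, at 6.19 to 21.0 against 4.41 to 7.85, and miR-126-3p was detected on 1 pregnant array only. Leukocyte miRNAs (3 of 5 detected, with miR-142-3p and miR-155 undetected) summed to 143 to 423 against 55.9 to 170. Red cell miRNAs (2 of 3 detected, miR-144 undetected) summed to 46.9 to 75.7 against 23.6 to 64.2. Each of these sums was lowest on non-pregnant 1, the dimmest array, where let-7 was undetected, and their part in the let-7 values was not tested. The liver miRNA miR-122 ranged from 0 to 48.8 on pregnant and 3.26 to 21.9 on non-pregnant arrays. Its 21.9 was on non-pregnant 1. Of the muscle miRNAs, 0 of 3 were detected.

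The miRNAs most like let-7b in their pattern were taken by the smallest root mean square difference of centred scaled log2 levels over the 7 arrays, among 85 tested miRNAs outside the family. They were miR-106b (0.146), miR-29c (0.184) and miR-15a (0.193), beside a median of 0.585 over the 85. Within the family the difference from let-7b was 0.275 for let-7g and 0.334 for let-7i. miR-106b and miR-29c, like let-7g and let-7i, were at the floor on all arrays but pregnant 2 and 4, and the levels share the floor and the divisors of the arrays.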

How the data were processed

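Plasma RNA of 7 cows (50 ng each, per the labels' protocols) was read on 1-colour arrays with Agilent Feature Extraction 11.0.1.1, per the file headers. Spot intensities were deposited after background subtraction within each array, with no scaling across arrays, per the file headers; the deposited intensity per miRNA is 0.1 where undetected. Set against it, the authors' deposited log2 table equalled log2 of that intensity plus 3.32 for 730 matched names. Its direction and scale follow from that match and the meaning of the constant is unknown.

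Outlier-flagged spots (60 of the let-7 spots) were left out and the rest averaged per probe, scaled, floored and put on the log2 scale as described, then averaged over a miRNA's probes. limma 3.58.1 in R 4.3.3 (lmFit, eBayes, two-sided, Benjamini-Hochberg over all 88 tested miRNAs) compared the groups with no covariate. The same fit was tested on simulated levels without a floor, which says nothing about members that lie at the floor. Alternatives changed the scaling, background correction, spot summary, filter, floor and variance model, blocked on cow number and omitted each array in turn. The rule for named miRNAs took all let-7 members, miR-98, the passenger strand, the miRNAs beside let-7 genes and the 3 most like the member with the highest mean level. The members and lists were chosen with earlier results of these data known. The number of arrays limits the precision.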

Additional observations from a re-analysis of the deposited data

Results flagged for a closer look

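Pregnant 4 stood apart from the other 3 pregnant arrays in the scaled log2 level of let-7a-5p, at -5.94 against -6.36 to -6.33, a gap of 0.928 of the range. It stood apart in let-7f as well, at -6.07 against -6.36 to -6.35, a gap of 0.945 of the range. Both exceed the Dixon limit, and 16 values were checked. Chance passes that limit in about 1 of 20 groups of normally spread values, a rate that does not hold for values set to a floor. The mean probe signals, which have no floor, did not pass it. For let-7a-5p these were 4.65 on pregnant 2 and 6.73 on pregnant 4, and for let-7f 4.35 and 4.98. The other pregnant arrays lay at or near the floor, so the gap depends on the floor.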

How the results depend on the processing

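No alternative gave a call: over 22 other settings limma called 0 miRNAs, the smallest adjusted p of any miRNA was 0.101 (no scaling between arrays), and 0 to 11 had an unadjusted p under 0.05, the 11 without pregnant 3. The differences of let-7b, let-7g and let-7i stayed positive except with normexp and its offset of 50, where they were -0.15, -0.19 and -0.21. That offset is larger than any let-7 mean probe signal, and the cause of the change in sign was not tested. Over the 14 settings other than leaving out a single array the differences ran from -0.15 to 1.08, -0.19 to 1.22 and -0.21 to 0.98. The highest values came from the software's signal per miRNA, which for let-7g and let-7i sums 2 probes on some pregnant arrays only. Changing the filter or the variance model leaves a difference as it is, so those settings do not test its sign. Leaving out each array in turn gave 0.27 to 0.84 for let-7b, 0.28 to 0.60 for let-7g and 0.13 to 0.40 for let-7i. For let-7g and let-7i all 3 non-pregnant arrays were at the floor in the main setting. Leaving out an array therefore could not make their differences negative, and their sign there is no sign of stability. The same holds of let-7i without scaling. Without non-pregnant 1 and without scaling, a setting chosen after seeing the data, they were 0.21, 0.19 and 0.073. Adjusted p over all settings ran from 0.284 to 0.970 for let-7b and let-7g and from 0.321 to 1 for let-7i. Members detected on at least 1 array fell from 6 to 3 when a probe needed over 50% of its spots well above background. let-7b alone had the highest scaled level on 5 arrays (on the other 2 it tied with other members at the floor), the highest software signal on 6, the brightest probe on 4, and the highest level with normexp on 4. Requiring detection on all 7 arrays left no let-7 member to test.

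With cow number as a replicate block the differences were 0.45, 0.28 and 0.27 and 0 miRNAs were called; pregnant 2 has no partner and adds nothing to that fit. Same-numbered cows deviated with correlations of 0.093, 0.646 and -0.20. The labels do not say that a number marks a pair, and the numbers were used as names only.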
